A study of Mus musculus with 6 samples.

Results

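The Polycomb group genes described here are Ezh1, Ezh2, Eed, Suz12, Jarid2 and Mtf2 of Polycomb repressive complex 2 (PRC2) and Rnf2, Ring1, Cbx7 and Phc1 of Polycomb repressive complex 1 (PRC1). They were taken by gene symbol from the deposited expression table, and all 10 of 10 listed symbols were found among its 18312 genes. The study dealt with the mRNA targets of Brf1 (Zfp36l1) and Brf2 (Zfp36l2), RNA-binding proteins that recognise AU-rich elements and promote mRNA decay. Its labels describe 6 libraries in 3 groups of 2, all from E14 mouse embryonic stem cells, wild type and of 129/Ola background, kept in 15% fetal bovine serum with 1000 U/ml LIF: RNA precipitated with an antibody to Brf1 and Brf2, RNA precipitated with rabbit IgG, and total RNA with no antibody. E14 is an established line of pluripotent cells from the mouse blastocyst.

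The table holds 1 profile of 22625281 counts whose columns name no library. The group or groups behind it are therefore not known, and no comparison between groups was made. Every level below is therefore a single value without replicates. It describes RNA in that profile, which may be total RNA, immunoprecipitated RNA or several libraries pooled. It is neither a measure of Brf binding nor a test of it. In such bulk RNA, fewer cells with a transcript and less of it per cell cannot be told apart. Levels are in FPKM, fragments scaled to kilobases of effective length and to the total count, and the range after each FPKM is the authors' own. Its upper end lay 2 Poisson standard deviations of the count above the FPKM in 14430 of 14468 genes with counts (tolerance 0.1%). The lower end was not checked over all genes. The range therefore covers counting error only. The profile carried the markers of the labelled cell type. All 6 embryonic stem cell markers examined lay between 40.6 FPKM (Esrrb) and 605 FPKM (Pou5f1). At least 1 FPKM was reached by 0 of 3 measured primitive endoderm markers and 1 of 3 measured fibroblast markers (Thy1, 3.74 FPKM). For each of these types 4 markers had been listed. The same level was reached by 2 of 4 neural markers (Mtap2 highest, 5.23 FPKM) and 2 of 4 trophoblast markers (Eomes highest, 2.68 FPKM). Neurog2, a neural factor, had 0 counts, which allows up to 3 counts or 0.0381 FPKM.

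Polycomb proteins keep developmental genes silent through modification of histones. PRC2 methylates histone H3 on lysine K27 through the catalytic subunits Ezh2 or Ezh1, which need Eed and Suz12 for activity, and accessory subunits such as Jarid2 and Mtf2 direct it to CpG-rich DNA. PRC1 attaches ubiquitin to histone H2A through the RING finger proteins Rnf2 (also called Ring1b) or Ring1, and its canonical form adds a chromobox protein that reads the PRC2 mark and a polyhomeotic protein that compacts chromatin by polymerising. In embryonic stem cells both complexes are known to occupy the promoters of lineage regulators.

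All 10 genes had at least 1 FPKM, against 56.0% of all genes in the table, and their median was 63.5 FPKM against 1.94 FPKM over all genes and 9.66 FPKM over the 10257 genes with at least 1 FPKM. At least 10 counts were found for all 10 genes (70.6% of all genes) and at least 5 FPKM for 8 of them (38.3% of all genes). The levels formed 2 separate ranges. Phc1, Mtf2, Eed, Suz12, Ezh2, Jarid2, Rnf2 and Cbx7 lay between 43.1 and 118 FPKM, at ranks 473 to 1473 of the table, and a level of 40 FPKM or more, a mark set after the values were seen, was reached by 8.67% of all genes. Ezh1 and Ring1 lay below 5 FPKM, at ranks 7093 and 8670. Together the 10 genes took 60791 counts, or 0.269% of the total.

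**Figure D1:**
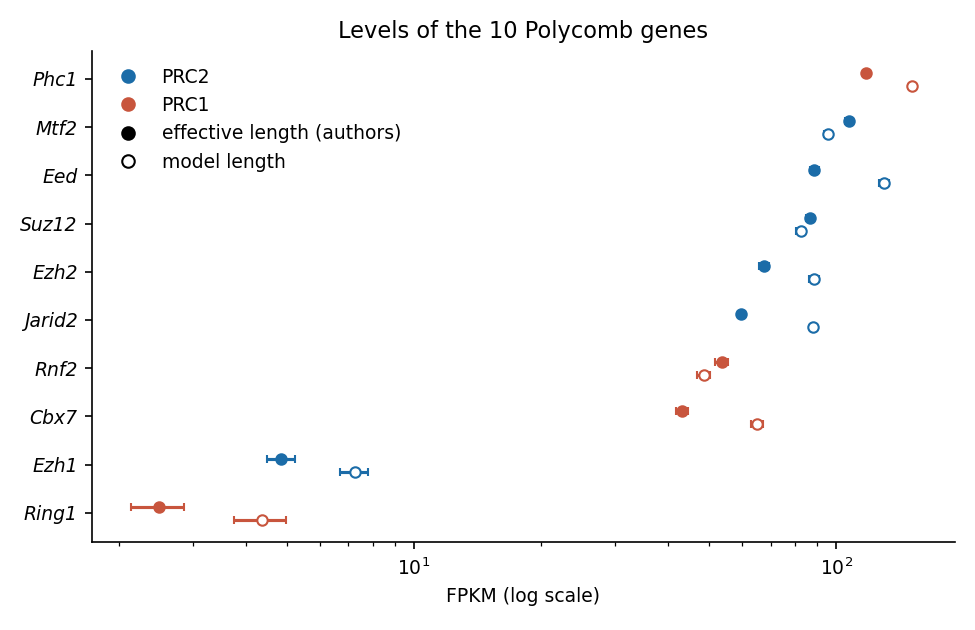
FPKM (log axis) of the 10 Polycomb genes, PRC2 in blue and PRC1 in red. Filled circles are the authors' values on the effective length with their bounds, open circles the level recomputed on the model length with bounds of the same relative width. Ezh1 and Ring1 sit below 8 FPKM on both scales and the other genes above 40 FPKM.

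Among the 3 core PRC2 genes, Eed, which binds the methylated histone and stimulates the enzyme, had 88.8 FPKM (86.5 to 91.1, 6053 counts). Suz12, the scaffold of the complex, had 86.5 FPKM (84.6 to 88.5, 8149 counts), and its range overlapped that of Eed. The catalytic subunit Ezh2 was lower, at 67.4 FPKM (65.6 to 69.2, 5310 counts). The ratio of Eed to Suz12 was 1.03 (exact 95% interval from the counts 0.993 to 1.06), and that of Suz12 to Ezh2 was 1.28 (1.24 to 1.33). Both ratios depended on the length used: on the model length Eed was 1.58 times Suz12, and Suz12 was 0.931 times Ezh2. The 3 genes thus lay within 1.32-fold of each other on the effective length and within 1.58-fold on the model length.

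Ezh1, the second catalytic subunit, had 4.85 FPKM (4.48 to 5.22, 687 counts). Ezh2 was 13.9 times as high (12.8 to 15.1), and it made up 93.3% of the summed FPKM of these paralogs. On the model length the ratio was 12.2 (11.3 to 13.3), so the gap between the enzymes was present on either length.

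The accessory subunits define alternative forms of PRC2. Mtf2, a Polycomb-like protein that binds unmethylated CpG DNA, had 108 FPKM (105 to 110, 8775 counts), the second highest of the 10 genes. Jarid2, which marks the other form and binds nucleosomes carrying ubiquitinated H2A, had 59.6 FPKM (58.5 to 60.8) from 11412 counts over a model of 5716 nt. Mtf2 was therefore 1.80 times Jarid2 per effective length (1.75 to 1.85), although Jarid2 had more counts, and 1.08 times (1.05 to 1.11) on the model length. The paralogs of Mtf2 were far lower, Phf19 at 2.26 FPKM (269 counts) and Phf1 at 1.47 FPKM (110 counts), so that Mtf2 held 96.7% of the summed FPKM of the Polycomb-like genes and 94.9% on the model length. Aebp2, the partner of Jarid2, had 20.7 FPKM. Epop, listed in the table under its older symbol E130012A19Rik, is an elongin-binding accessory subunit and had 32.3 FPKM (60.7 FPKM on the model length).

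For the catalytic core of PRC1, Rnf2 had 53.6 FPKM (51.8 to 55.5, 3324 counts). Ring1 had 2.50 FPKM (2.14 to 2.85) from 201 counts, the lowest level and the widest relative range (14.1% on each side) of the 10 genes. The ratio of Rnf2 to Ring1 was 21.5 (18.6 to 24.9), and on the model length it was 11.1 (9.63 to 12.9). Rnf2 was the higher on both scales, but the size of the ratio moved by over 1.5 times, because the effective length of Ring1 was 1.75 times its model length and that of Rnf2 0.905 times.

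Phc1, the polyhomeotic subunit, was the highest of all 10 genes at 118 FPKM (116 to 120, 12625 counts). Its paralogs Phc2 and Phc3 had 7.16 and 3.03 FPKM, and Phc1 held 92.1% of their summed FPKM (91.8% on the model length). Phc1 was 16.5 times Phc2 (15.4 to 17.6), and 14.2 times (13.3 to 15.1) on the model length.

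Cbx7, the chromobox reader of methylated H3, had 43.1 FPKM (41.8 to 44.5, 4255 counts). Of the other Polycomb chromobox genes compared, Cbx6 had 11.8 FPKM, Cbx2 6.59 FPKM and Cbx8 0.459 FPKM from 26 counts. Cbx7 held 69.6% of the summed FPKM of these 4 genes, less than the leading gene held in the Ezh, Ring, polyhomeotic and Polycomb-like families. The order of Rnf2 and Cbx7 depended on the length, with a ratio of 1.24 (1.19 to 1.30) on the effective length and 0.746 (0.713 to 0.781) on the model length. The model of Cbx8 in the table has 1393 nt, while the nearest coding transcript in GENCODE M21 has 3580 nt, so its level covers a shorter stretch than that annotation.

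**Figure D2:**
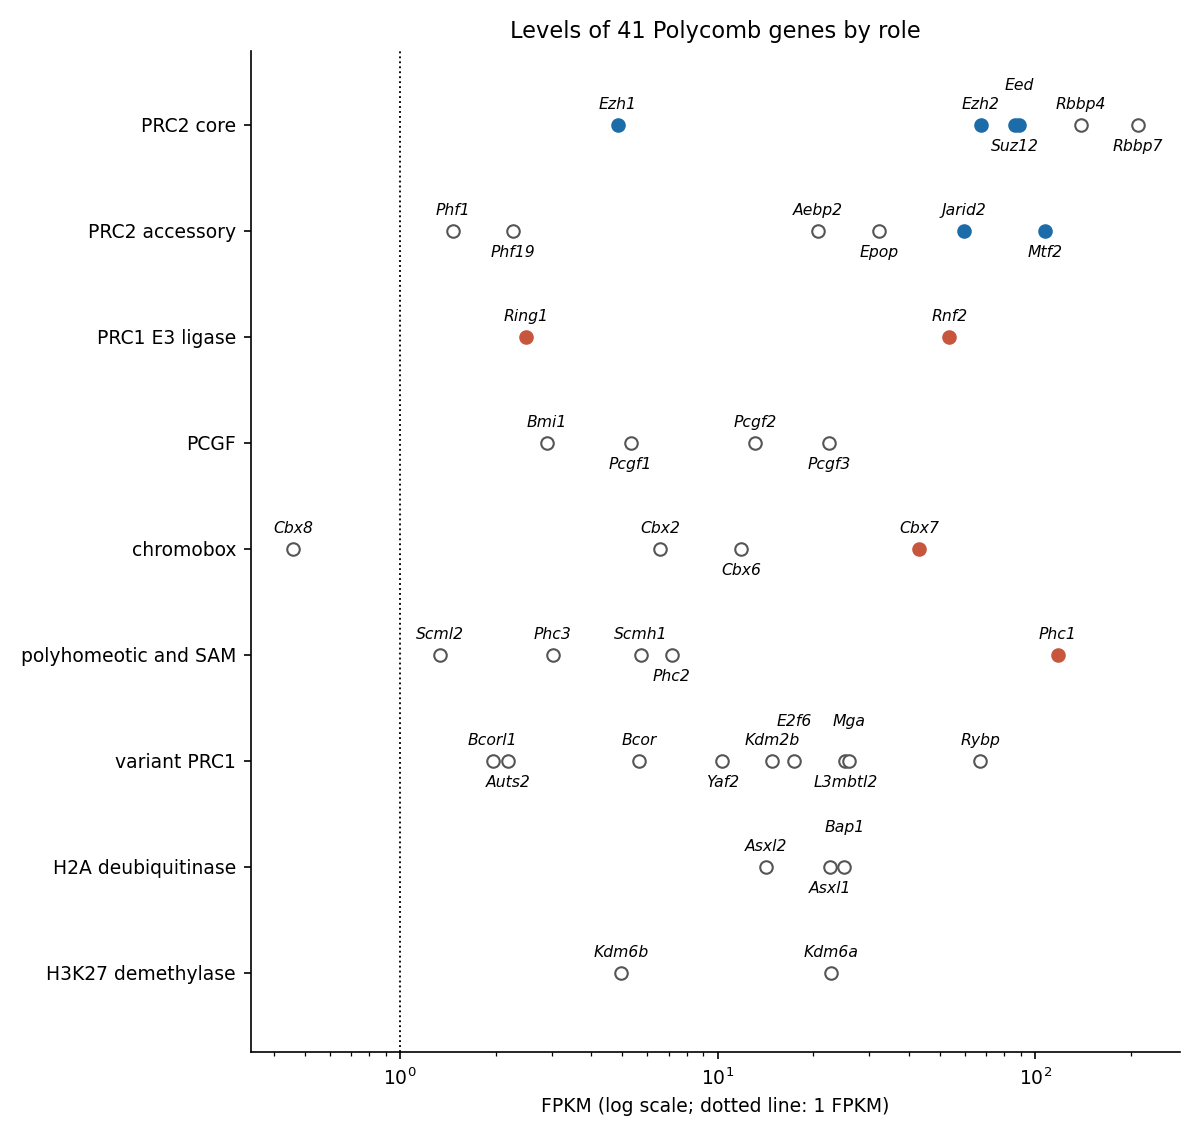
FPKM on the effective length (log axis) of 41 Polycomb genes by role, with 1 circle per gene, filled for the 10 genes described above and open for the others. In the Ezh, Ring, chromobox and polyhomeotic families 1 gene stands to the right of its paralogs, and of the genes plotted Cbx8 alone is left of the line at 1 FPKM.

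The wider list of Polycomb genes held 45 symbols, of which Lcor, Pcgf5, Pcgf6 and Asxl3 were not analysed here. Among the 31 measured genes other than the 10 described above, 30 had at least 1 FPKM, against 56.0% of all genes. The median of the 31 was 11.8 FPKM, between the median of all genes and that of the 10. Over all genes with at least 1 FPKM the median was 9.66 FPKM. Of these 31, 3 reached 40 FPKM on the effective length, the mark set after the values were seen, against 8.67% of all genes. Rbbp7 at 210 FPKM and Rbbp4 at 139 FPKM encode histone chaperones that PRC2 shares with deacetylase complexes, and Rybp at 67.2 FPKM encodes the subunit that replaces chromobox proteins in variant PRC1. On the model length Epop (60.7 FPKM) and the variant PRC1 gene L3mbtl2 (46.3 FPKM) also passed that mark. The share over all genes was not counted on that length. Rybp was 1.56 times Cbx7 (1.50 to 1.62) on the effective length and 0.942 times (0.906 to 0.980) on the model length, so their order depended on the length used.

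The PCGF proteins pair with Rnf2 or Ring1 and define the type of PRC1. Of 4 measured, Pcgf3 was highest at 22.4 FPKM, followed by Pcgf2 at 13.1, Pcgf1 at 5.31 and Bmi1 at 2.89 FPKM. All 4 were below Rnf2, and Pcgf3, Pcgf2 and Pcgf1 were above Ring1. The place of Bmi1 depended on the length used, with a ratio to Ring1 of 1.16 (0.941 to 1.43) on the effective length and 0.493 (0.400 to 0.606) on the model length. The 9 variant PRC1 genes had a median of 14.8 FPKM and ran from Bcorl1, a co-repressor, at 1.96 FPKM to Rybp. Kdm2b, which brings variant PRC1 to CpG islands, had 14.8 FPKM, and its level was 30.1 FPKM on the model length, the largest ratio of effective to model length (2.03) in the wider list. Scml2, a SAM domain protein, had 1.33 FPKM and was the lowest of its role group.

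**Figure D3:**
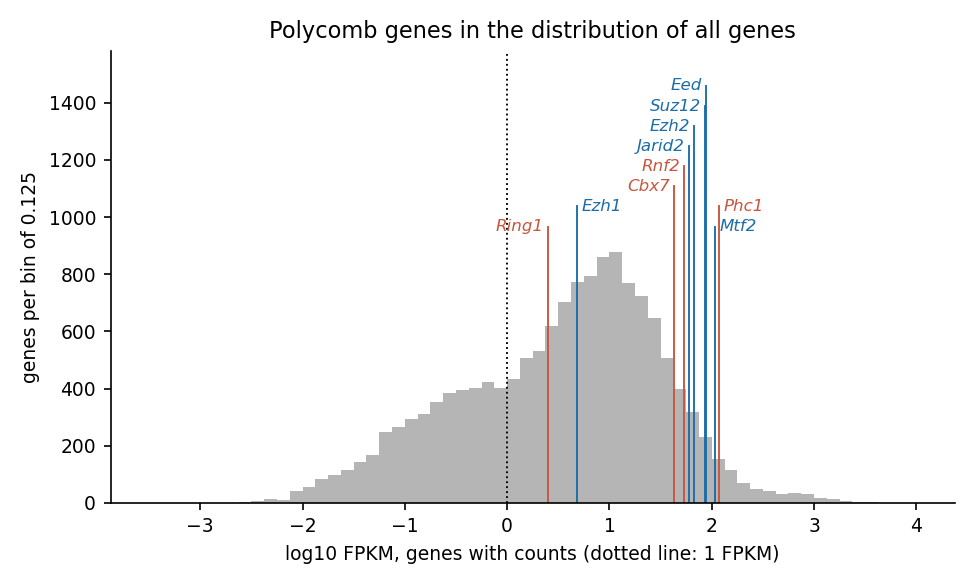
Number of genes per bin of log10 FPKM for all genes with counts (grey), with the 10 Polycomb genes as vertical lines, PRC2 in blue and PRC1 in red. The other lines cluster in the upper shoulder above 40 FPKM, and those of Ring1 (2.50 FPKM) and Ezh1 (4.85 FPKM) lie left of the mode.

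Ranked on the effective length, the order was Phc1, Mtf2, Eed, Suz12, Ezh2, Jarid2, Rnf2, Cbx7, Ezh1 and Ring1. Of the 9 neighbouring pairs only Eed and Suz12 had overlapping ranges. On the model length the order was Phc1, Eed, Mtf2, Ezh2, Jarid2, Suz12, Cbx7, Rnf2, Ezh1 and Ring1, and only Ezh2 (88.5 FPKM) and Jarid2 (88.2 FPKM) overlapped. The first place and the last 2 places were the same on both scales. The middle order was not.

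The genes whose place dropped on the model length shared a property of sequence. The effective length of Mtf2, Rnf2 and Suz12 was below the model length (ratios 0.888, 0.905 and 0.952), while in the other 7 genes it was above, from 1.28 (Phc1) to 1.75 (Ring1). Mtf2, Rnf2 and Suz12 also had the lowest GC content of the 10 transcripts, 38.2%, 40.4% and 41.6%, against 44.3% (Ezh2) to 60.7% (Ring1) in the others. The table as a whole showed the same relation. An effective length below the model length was found in 18.2% of 13590 genes with a matching annotated transcript, in 77.9% of the 1401 below 42% GC and in 11.4% of the rest, a GC threshold set after the values were seen. The cause was not tested.

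**Figure D4:**
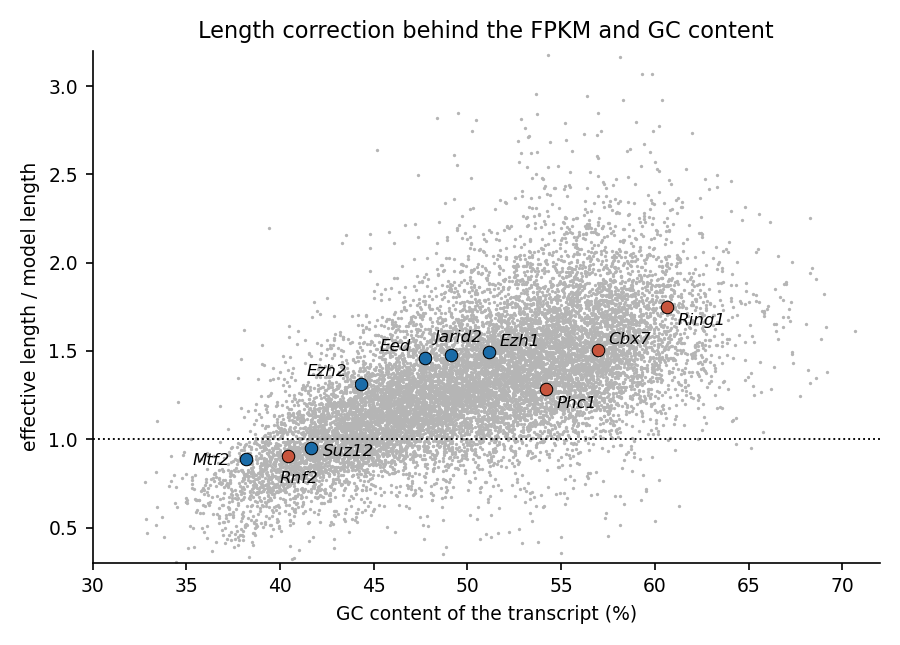
Ratio of effective to model length against GC content of the annotated transcript nearest in length, for genes of the table (grey points, 13577 drawn) and the 10 Polycomb genes (PRC2 blue, PRC1 red). Mtf2, Rnf2 and Suz12 lie below the dotted line at a ratio of 1, at 38.2% to 41.6% GC.

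Because the study concerned proteins that bind AU-rich elements, the 3′ untranslated regions of the 10 genes were searched for TATTTAT on the transcript strand. The longest region per gene in GENCODE M21 was used. It was found in 4 of 10 genes, against 29.2% of 17521 genes of the table with an annotated region. With the shortest annotated region it was found in 1 of 10, against 19.9% of all genes. The shortest regions of the 10 genes had a median of 236 nt against 475 nt. They held 0.343 sites per kb against 0.326 over all genes, from 2 sites. The 10 genes have longer regions where the longest is taken (median 1758 nt against 1050 nt), and per length they held 0.426 sites per kb against 0.310 over all genes, from 6 sites in all. The 6 sites are shown because AU-rich elements of this kind are the known recognition sequences of Brf1 and Brf2, and nothing in the table says whether these were bound. Capitals mark the motif, letters are those of the reference transcripts on GRCm38 (C57BL/6J, not the 129/Ola strain of the cells), and positions count from the first base after the stop codon.
Suz12, position 1092: ttcatattcttTATTTATaaaggatcaat
Suz12, position 1722: ccctttggttcTATTTATaaaaaaaaaaa
Mtf2, position 1457: tggttagtgctTATTTATtccattaattg
Rnf2, position 549: gaagtcttgtaTATTTATagttttctata
Rnf2, position 1457: gtcattttaacTATTTATctgtcagttta
Cbx7, position 2443: tgtatagcatcTATTTATttagatgattt

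Only the Mtf2 site lay within the longer nonamer TTATTTATT, which 8.06% of all genes held. Mtf2, Rnf2 and Suz12, the transcripts of lowest GC content, carried 5 of the 6 sites in regions of 1911 to 2059 nt. A and T made up 68.3%, 65.7% and 63.7% of these regions, against 65.4% in Ezh2 and 63.2% in Eed, which lacked TATTTAT. The Cbx7 site stood 60 nt before the transcript end, in a region of 2509 nt with 45.6% A and T, the lowest AT share of the 10. The shorter motif ATTTA, which lies within TATTTAT, was found in 8 of 10 genes with the longest region (67.6% of all genes). With the shortest region it was found in 3 of 10 (51.7% of all genes). Per length the 10 genes held 2.20 matches per kb against 1.92 with the longest region, and 1.54 against 1.94 with the shortest. In the longest regions Rnf2 had the most matches, 9, while Phc1 and Ring1 had none. Ezh2 and Eed, whose longest regions were the smallest of the 10 at 402 and 410 nt, had 3 and 2 ATTTA matches and no TATTTAT. The 4 genes with TATTTAT had 43.1, 53.6, 86.5 and 108 FPKM and the 6 without it 2.50 to 118 FPKM, so the levels of the groups overlapped.

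**Figure D5:**
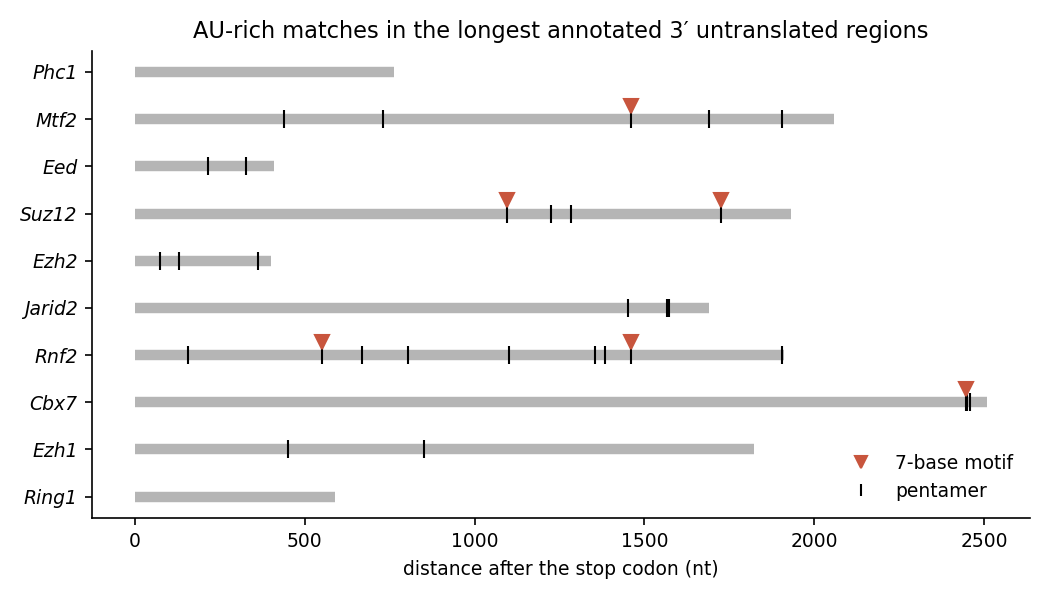
Longest annotated 3′ untranslated region of each of the 10 genes (grey bars, to scale in nt after the stop codon), ordered by FPKM, with TATTTAT matches as red triangles and ATTTA matches as black ticks. Triangles stand on Mtf2, Suz12, Rnf2 and Cbx7, and the bars of Phc1 and Ring1 carry no mark.

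Among the other 31 genes of the wider list, 16 held TATTTAT in the longest region, against 29.2% of all genes. Per length they held 0.348 sites per kb against 0.310 over all genes. Their longest regions were also longer (median 1640 nt against 1050 nt). With the shortest region 9 of the 31 held it, against 19.9% of all genes. Rybp held 4 sites in a region of 3608 nt, the most in the list, and 1 of its nonamers.

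The table does not say whether strand was used, so reads of a gene and of an opposite-strand gene that overlaps it cannot be told apart. GENCODE M21 places Rnf2 on chromosome 1, Mtf2 on 5, Ezh2 and Phc1 on 6, Eed on 7, Ezh1 and Suz12 on 11, Jarid2 on 13, Cbx7 on 15 and Ring1 on 17. In that annotation the transcripts nearest in length overlapped exons of an opposite-strand gene in 5 of the 10 genes. The overlap was 395 of 4060 nt between Mtf2 and Tmed5, 261 of 2067 nt between Eed and E230029C05Rik, 178 of 4373 nt between Suz12 and Gm26563, 100 of 2899 nt between Cbx7 and Apobec3, and 92 of 2670 nt between Ezh2 and Gm26625. No such overlap was annotated for Ezh1, Jarid2, Rnf2, Ring1 or Phc1. Beyond these overlapping genes, no annotated transcript of another gene matched any of the 10 over at least 100 nt at 95% identity or more, including between Ezh1 and Ezh2 and between Rnf2 and Ring1.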

How the data were processed

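The labels describe RNA immunoprecipitation and total RNA libraries from cytoplasmic extracts of E14 cells, fragmented to about 200 nt. The submitters' processing notes name eXpress 1.1.1, CASAVA 1.8.2, Bowtie 1.1.2 and mm9. For their roles and settings, the sources used here give nothing. Per the file headers, the authors deposited counts per gene, estimated counts and FPKM with bounds, 1 transcript model per symbol. Counts and estimated counts were equal in every row, and FPKM recomputed from counts and effective length matched within 0.1% in all 14468 genes with counts. A row naming no gene, which holds the column total, was left out.

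The 10 genes and the wider list were chosen with earlier results of these data known. A further gene of the list was left out of every count of it and is not reported here. The text names all 10 genes and, from the list, the highest and lowest of role groups and genes under 1 FPKM. Other genes of the list and the overlapping genes were named after values were seen. No test between groups or across genes was run. Intervals of ratios are exact Clopper-Pearson 95% intervals of the counts, scaled by length. The 3′ regions were the bases past the stop codon of GENCODE M21 coding transcripts (GRCm38, at least 50 nt), matched by symbol or RefSeq synonym for 17521 genes (95.7%). That build differs from mm9, so no coordinates are given. GC content came from the transcript nearest in length, within 10% of the model. The calculation of levels, ratio intervals and motif counts was tested on simulated data. Those data did not vary the effective length, the strand or the choice of 3′ region. The tools were scipy 1.17.1, pandas 2.3.3, matplotlib 3.10.9 and numpy 2.4.6 under Python 3.11.15.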

Additional observations from a re-analysis of the deposited data

How the results depend on the processing

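With levels recomputed on the model length, the median over all genes went from 1.94 to 2.58 FPKM, and 7 of the 10 genes were higher and 3 lower, all outside the authors' bounds. The levels were then 152 FPKM for Phc1, 130 for Eed, 95.5 for Mtf2, 88.5 for Ezh2, 88.2 for Jarid2, 82.4 for Suz12, 65.0 for Cbx7, 48.5 for Rnf2, 7.24 for Ezh1 and 4.37 for Ring1. The ratio of Ezh2 to Ezh1 was 12.2 and that of Rnf2 to Ring1 11.1. The changes follow from the length put into the formula. Estimated counts gave the same levels. At 5 FPKM, 8 of the 10 genes and 30 of the 41 of the wider list passed (38.3% of all genes), and 10 and 41 had at least 10 counts (70.6% of all genes). With the shortest annotated region TATTTAT was found in 1 of the 10 genes (Suz12), below the share over all genes (19.9%), whereas with the longest region the share was above it. The shortest regions of the 10 genes were also shorter than those of all genes (median 236 nt against 475 nt). Per length they held 0.343 sites per kb against 0.326, from 2 sites. With the region of the transcript nearest in length, an alternative chosen after the data were seen, TATTTAT was found in 4, against 26.2% of all genes. With the longest region ATTTA was found in 8 genes (67.6% of all genes) and TTATTTATT in 1 (8.06%). With the shortest region the counts were 3 (51.7%) and 0 (5.39%). No paired analysis was possible because the columns name no library, and no library could be left out for the same reason. Among the Polycomb genes described, counts limit the precision most for Cbx8 (26 counts) and, among the 10 genes, for Ring1 (201).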

Other observations

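The enzymes that remove the Polycomb marks were measured in the same profile. Of the H2A deubiquitinase complex, the catalytic subunit Bap1 had 25.0 FPKM (24.1 to 26.0) and its cofactors Asxl1 and Asxl2 had 22.6 and 14.2 FPKM. Bap1 was below Rnf2 and above Ring1. Of the H3K27 demethylases, the X-linked Kdm6a had 22.7 FPKM (21.8 to 23.6) and Kdm6b had 4.96 FPKM (4.65 to 5.27), whose range overlapped that of the methyltransferase Ezh1. All 5 genes were below Ezh2, Eed and Suz12 on both length scales.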
